A study of Mus musculus with 2 samples.

Results

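The miRNA genes Mir33, Mir103-1, Mir103-2 and Mir107 lie in introns of genes of cholesterol and coenzyme A synthesis, and their levels were examined in mouse adrenal glands. They were chosen by gene symbol, as the intronic miRNA of Srebf2 and the intronic miRNAs of the Pank genes, and are 4 of 2202 annotated miRNA genes. Small RNA under 30 nucleotides was sequenced from total RNA of whole adrenal glands of male B6CASTF1/J mice aged 4 days, which are F1 offspring of a cross of the C57BL/6J and CAST/EiJ strains. There was 1 group of 2 libraries, replicate 1 from male 3 and replicate 2 from male 4, with no treatment named and no second group. The donor label was the same for both, and only the numbers of the males mark them as separate animals. Each male gave a single library, so variation of animal, dissection and library cannot be told apart, and neither can fewer cells of a type and less miRNA per cell.

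Srebf2 encodes the transcription factor that switches on cholesterol synthesis and uptake when sterol runs low, and miR-33 is made from its intron. In mouse, miR-33 represses the cholesterol exporter Abca1. Adrenocortical cells store cholesterol as esters and use it as the precursor of all their steroids. The Pank genes encode pantothenate kinases, which catalyse the first step of coenzyme A synthesis, and the family of miR-103 and miR-107 from their introns has been tied in mouse to insulin sensitivity, with Cav1 among its targets. A primary transcript is cut to a hairpin, the hairpin to a duplex of a 5p and a 3p arm, and usually 1 arm of the duplex is retained. Bases 2 to 8 of the retained arm, the seed, select the target mRNAs.

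The mature sequences are shown first because the counts of the family depend on how far its members share sequence. All 4 genes matched RefSeq hairpins by symbol and position (build GRCm38.p6). The sequences run 5′ to 3′, and capitals mark the seed.
miR-33-5p: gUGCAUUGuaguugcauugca
miR-33-3p: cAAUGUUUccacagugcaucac
miR-103-3p, made from both Mir103-1 and Mir103-2: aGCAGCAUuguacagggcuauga
miR-107-3p: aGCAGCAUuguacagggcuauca
miR-103-1-5p: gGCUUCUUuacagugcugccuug
miR-103-2-5p: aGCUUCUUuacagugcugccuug
miR-107-5p: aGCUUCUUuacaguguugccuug

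The 3p arms of the family share the seed GCAGCAU, which no other of the 1679 mature names in the RefSeq table carried. The miR-103-3p sequence was present in 2 hairpins, Mir103-1 and Mir103-2, and each of the other mature sequences was present in 1. Counted from 1 at the 5′ end, miR-107-3p differed from miR-103-3p by the single substitution G22C, so their first 21 bases were the same. On the 5p arms, miR-103-2-5p differed from miR-103-1-5p by G1A (miR-103-1-5p base first), and miR-107-5p differed from miR-103-2-5p by C16U (miR-103-2-5p base first). The seeds of miR-33-5p, UGCAUUG, and of miR-33-3p, AAUGUUU, were each carried by 1 mature name in the table. Among 141767 annotated transcripts, the exact mature sequences were found in the miRNA genes themselves and in no other gene.

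The hairpins of the family show where a read can be told apart. Capitals mark the 5p and 3p arms.
Mir103-1: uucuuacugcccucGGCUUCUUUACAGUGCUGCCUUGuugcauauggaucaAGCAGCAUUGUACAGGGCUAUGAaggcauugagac
Mir103-2: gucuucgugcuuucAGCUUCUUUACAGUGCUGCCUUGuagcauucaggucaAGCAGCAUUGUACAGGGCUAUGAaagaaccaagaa
Mir107: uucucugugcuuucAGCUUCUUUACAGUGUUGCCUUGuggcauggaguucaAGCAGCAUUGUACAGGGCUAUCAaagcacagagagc
Mir33: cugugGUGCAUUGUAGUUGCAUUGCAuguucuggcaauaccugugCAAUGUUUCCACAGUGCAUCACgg

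The Mir103-1 and Mir103-2 hairpins aligned with 80.2% identity and shared an unbroken run of 27 bases, longer than the 23 bases of miR-103-3p. The Mir107 hairpin was 80.9% identical to Mir103-1 and 83.9% identical to Mir103-2, and shared a run of 24 bases with each. Mir33 shared at most 8 bases in a row with any of them. In windows of 18 bases, 16 of 69 windows of Mir103-1, 22 of 69 of Mir103-2 and 13 of 70 of Mir107 occurred in more than 1 of the 1005 RefSeq hairpins, against 0 of 52 for Mir33. All 6 windows inside the 3p arm were shared for Mir103-1 and for Mir103-2, against 4 of 6 for Mir107. On the 5p arm the shared windows were 5 of 6 for Mir103-1, 5 of 6 for Mir103-2 and 0 of 6 for Mir107. With windows of 22 bases, the shared windows were 8 of 65, 10 of 65 and 5 of 66 for Mir103-1, Mir103-2 and Mir107, and 0 of 48 for Mir33. Whether a read with a mismatch was placed at several loci by the authors' alignment is not given in the sources used here.

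**Figure D1:**
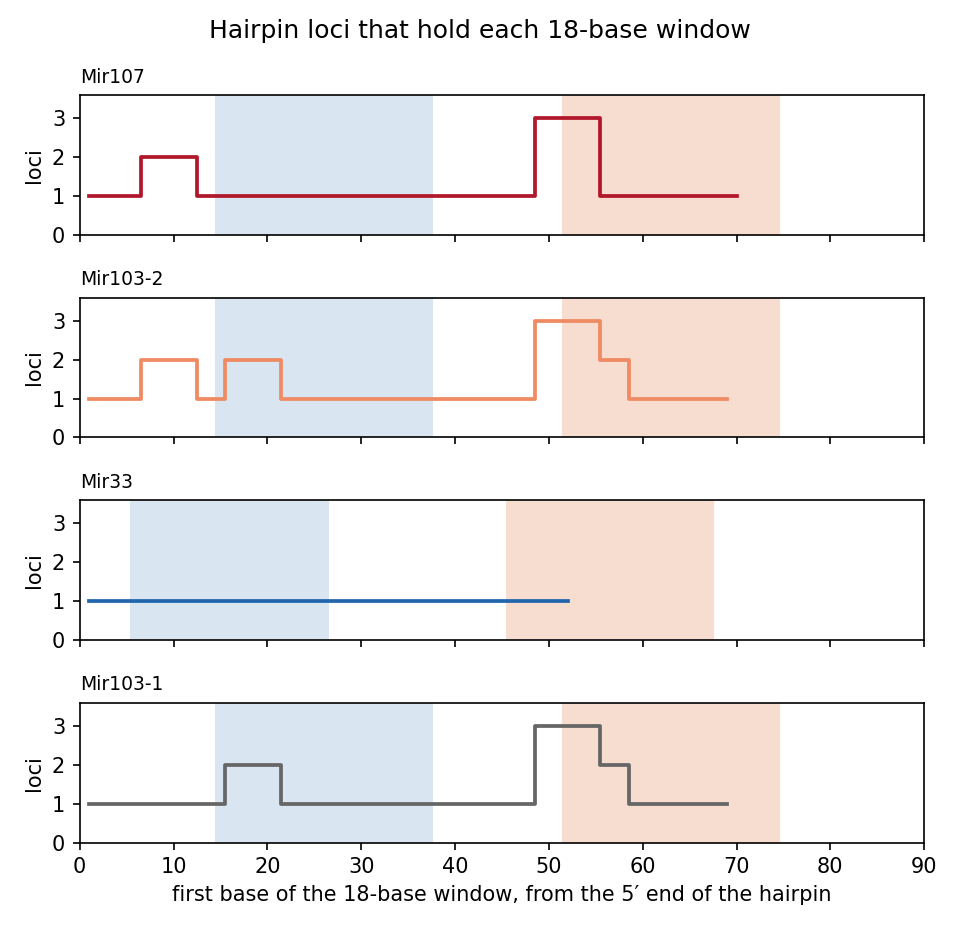
For each hairpin, the number of RefSeq hairpin loci (y axis) that hold the 18-base window starting at each base (x axis, bases from the 5′ end); blue shading marks the 5p arm and orange shading the 3p arm. Windows at the start of the 3p arm occur in 3 loci for Mir107, Mir103-2 and Mir103-1, and every window of Mir33 occurs in 1.

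The 4 genes lie on different chromosomes, each in an intron of its host and on the host's strand (mm10, GENCODE M21). Mir33 (ENSMUSG00000065465.1) lies at chr15:82198122-82198190 on the plus strand, in intron 16 of 18 of Srebf2 (counted in its principal protein-coding transcript, as for the other hosts), 335 bases after the upstream exon. Mir103-1 (ENSMUSG00000065553.1) lies at chr11:35782396-35782481 on the plus strand, in intron 5 of 6 of Pank3, 688 bases after the upstream exon. Mir103-2 (ENSMUSG00000065563.1) lies at chr2:131288052-131288137 on the plus strand, in intron 5 of 6 of Pank2, 454 bases after the upstream exon. Mir107 (ENSMUSG00000065594.1) lies at chr19:34820687-34820773 on the minus strand, in intron 5 of 6 of Pank1, 326 bases after the upstream exon. The 3 Pank miRNAs thus occupy the intron of the same number in their hosts. None had a gene annotated on the opposite strand, and the nearest other miRNA gene on the chromosome started at least 70177 bases away. By RNAfold the predicted minimum free energies of the hairpins were -41.2 kcal/mol for Mir107, -35.8 for Mir103-1, -32.2 for Mir33 and -31.8 for Mir103-2.

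Replicate 1 held 3961630 sense-strand reads of miRNA genes among 11770895 reads, and replicate 2 held 1686822 among 6557080. Levels are given as counts per 1000000 of those sense-strand reads (CPM). Reads that fit several loci, 3176275 in replicate 1 and 1684373 in replicate 2, were given to no gene. Of the gene sets that mark cell types, neuroendocrine miRNAs were present with 36299 CPM in replicate 1 and 46670 CPM in replicate 2 (4 of 4 genes detected, that is, counted at least 10 times in each library), and endothelial miRNAs with 65225 and 83398 CPM. Mir122, which defines hepatocytes, had 1299 CPM (replicate 1) and 20602 CPM (replicate 2), and the red cell miRNAs Mir451a and Mir144 summed to 7235 and 576 CPM.

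Mir107 was by far the most counted of the 4 genes, Mir33 and Mir103-2 were low, and Mir103-1 was barely counted. Their summed share of the sense-strand reads was 0.0548% in replicate 1 and 0.129% in replicate 2, a mean of 0.0918% ± 0.0524 (SD, n = 2). Of the 4, 3 were detected, as were 340 of all 2202 genes.

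Mir33, the Srebf2 intronic miRNA, was counted 75 times in replicate 1 and 36 times in replicate 2. Its level was 18.9 CPM (95% exact Clopper-Pearson interval 14.9 to 23.7) in replicate 1 and 21.3 CPM (14.9 to 29.5) in replicate 2, and the mean was 20.1 ± 1.70 CPM (SD, n = 2). The libraries were close and their intervals overlapped. The gene ranked 288 in replicate 1 and 283 in replicate 2 among all miRNA genes, and its mean level lay below the median of 223 CPM over detected genes. Among the 1005 RefSeq hairpins, all its 18-base windows are found in 1, which holds for none of the other 3 genes. Sequence outside these hairpins was not searched for the windows. The CPM intervals cover counting error of reads only, since each male gave a single library. Reads without molecular identifiers are not independent molecules, so the intervals can be too narrow even for counting error. The same limits hold for the exact tests between the libraries.

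Mir107, in Pank1, was counted 2021 times in replicate 1 and 2080 times in replicate 2. Scaled to the library totals, its level was 510 CPM (95% exact interval 488 to 533) in replicate 1 and 1233 CPM (1181 to 1287) in replicate 2, with a mean of 872 ± 511 CPM (SD, n = 2). The raw counts were almost equal while replicate 1 had 2.35 times the sense-strand total, so the level was lower in replicate 1 and the intervals did not overlap. It ranked 120 in replicate 1 and 77 in replicate 2. A read that covers only the first 21 bases of miR-107-3p would also fit the Mir103 genes, and reads that fit several loci are outside these counts.

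Mir103-2, in Pank2, was counted 72 times in replicate 1, at 18.2 CPM (14.2 to 22.9), and 52 times in replicate 2, at 30.8 CPM (23.0 to 40.4), with a mean of 24.5 ± 8.95 CPM (SD, n = 2). The lower level was again that of replicate 1, and the intervals narrowly did not overlap. Mir103-1, in Pank3, was counted 2 times in replicate 1, at 0.505 CPM (0.0611 to 1.82), and 6 times in replicate 2, at 3.56 CPM (1.31 to 7.74), with a mean of 2.03 ± 2.16 CPM (SD, n = 2). Its intervals overlapped, but overlap is no test of equal levels. Its count in replicate 1 lay under the 3 counts that a count of 0 allows (0.757 CPM). Both loci make the same miR-103-3p, so these counts hold only reads that were placed at 1 of them, and the level of miR-103 itself cannot be read from them. The tables do not say which arm a count came from.

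**Figure D2:**
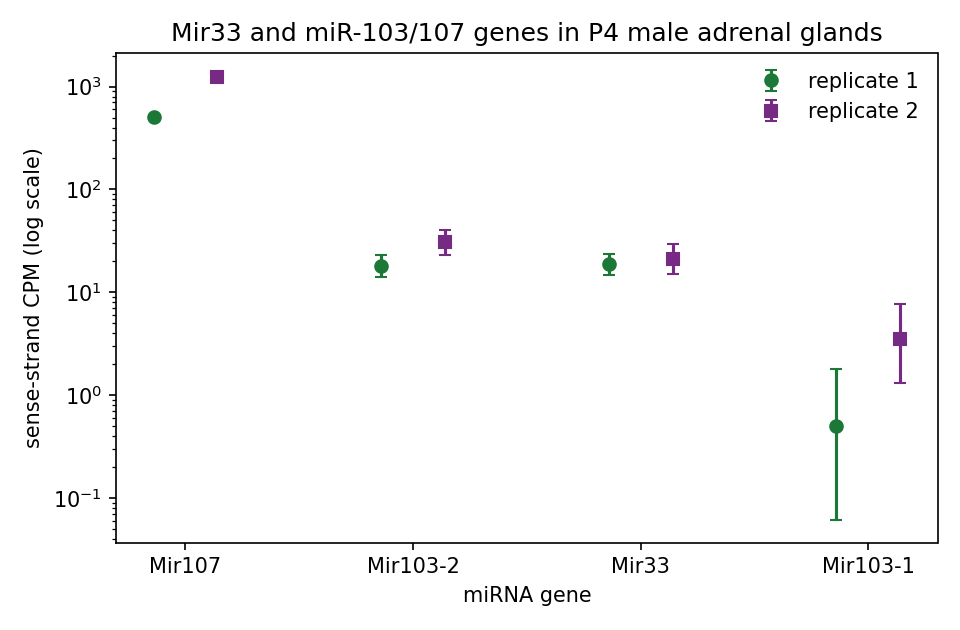
Sense-strand CPM (y axis, log scale) of each gene (x axis) in replicate 1 (green circles) and replicate 2 (purple squares), with 95% exact intervals for counting error. Mir107 stands at 510 and 1233 CPM, Mir103-2 and Mir33 lie between 18.2 and 30.8 CPM, and Mir103-1 is below them at 0.505 and 3.56 CPM.

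The order of the counts placed at single loci was tested within each library with a two-sided exact binomial test of equal counts. Benjamini-Hochberg adjustment was over 12 tests of 6 pairs. Mir107 exceeded each other gene in both libraries, and Mir103-1 was under each other gene in both libraries. The largest adjusted p among these was 3.39e-06 (exact binomial test). Reads of miR-103-3p that fit both Mir103 genes are outside these counts. The low place of Mir103-1 and Mir103-2 therefore holds for counts at single loci and does not order the miRNAs made from the genes. Mir33 and Mir103-2 could not be ordered: adjusted p was 0.869 in replicate 1, where Mir33 had more counts, and 0.119 in replicate 2, where Mir103-2 had more. A read in this size range can span a mature miRNA whole, so counts were not divided by length for these tests. Read lengths were not examined, and shorter reads may be among the counts. Divided by the annotated gene length, the mean levels were 1002 CPM per 100 bases for Mir107, 29.2 for Mir33, 28.5 for Mir103-2 and 2.36 for Mir103-1.

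Within the family, nearly every count that was placed at a single locus belonged to Mir107. Its share of the counts of Mir103-1, Mir103-2 and Mir107 was 96.5% in replicate 1 (2021 of 2095 counts, 95% exact interval 95.6 to 97.2%) and 97.3% in replicate 2 (2080 of 2138, 96.5 to 97.9%). The intervals overlapped, and a two-sided Fisher's exact test of the shares between the libraries gave p = 0.133. This share describes counts at single loci and not the ratio of miR-107 to miR-103, since miR-103-3p reads that fit both Mir103 genes are outside it. Reads set aside for aligning to more than 1 locus, from all miRNAs and other sequences, were 1516 times the family's counts in replicate 1 and 788 times in replicate 2.

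Of 94 miRNA genes with at least 1 mature form identical to one from another locus, 45 were detected, with a median mean level of 78.9 CPM. Of 924 genes with no such form, 264 were detected, with a median of 293 CPM. Mir103-1 and Mir103-2 are of the first kind, and Mir103-2 lay below that median at 24.5 CPM. Mir107 and Mir33 are of the other kind, with Mir107 above its median at 872 CPM and Mir33 below it at 20.1 CPM. The classes go by whole mature forms, and the first 21 bases of miR-107-3p are also those of miR-103-3p. The difference between the classes was not tested.

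Between the 2 libraries, Mir107 was lower in replicate 1 and Mir33 was not distinguishable. The comparison is of libraries, not of conditions, and a difference has no replicate check. A two-sided exact binomial test was run on the 404 genes that reached 10 counts in replicate 1 or replicate 2, and a gene was called at an adjusted p under 0.05 with a log2 ratio (CPM + 0.5, replicate 1 over replicate 2) above 1 or below -1. Of the 404 genes tested, 74 were called, or 18.3%, with 35 higher (8.66%) and 39 lower (9.65%) in replicate 1. Of the 4 genes described here, 3 were tested and 1 was called, which is too few to set against that background.

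Mir107 had a log2 ratio of -1.27 and a ratio of 0.414 (95% exact interval 0.389 to 0.440, adjusted p = 6.90e-170, exact binomial test). Only 29 of the 404 tested genes had a more negative log2 ratio. With all reads of a library as the denominator in place of sense-strand miRNA reads, its log2 ratio was -0.88, which is no longer past -1. On that scale the calls over all genes were also split differently, with 63 higher and 19 lower in replicate 1. The median log2 ratio of all tested genes was 0.41 with all reads as the denominator and 0.05 with sense-strand reads. Relative to that median, Mir107 stood at -1.30 with all reads and at -1.33 with sense-strand reads. Reads that fit several loci, from all sequences, numbered 0.80 per sense-strand read in replicate 1 and 1.00 in replicate 2. Their part in the Mir107 ratio was not tested. Mir103-2 had a log2 ratio of -0.75 and a ratio of 0.590 (0.407 to 0.859, adjusted p = 0.00784, exact binomial test) and was not called, because the ratio was under the size threshold; relative to all reads its adjusted p was 0.209 by the same exact test.

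Mir33 had a log2 ratio of -0.17 and a ratio of 0.887 (0.589 to 1.36, adjusted p = 0.619, exact binomial test). The interval runs from lower to higher in replicate 1. Relative to all reads the sign turned, with a log2 ratio of 0.20. Relative to the median of tested genes, it stood at -0.22 with either denominator. Mir103-1 was not tested for its 8 counts, and its ratio of 0.142 had an exact interval from 0.0140 to 0.794. This interval lies wholly on the side of a lower level in replicate 1, although the CPM intervals of the libraries overlapped.

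**Figure D3:**
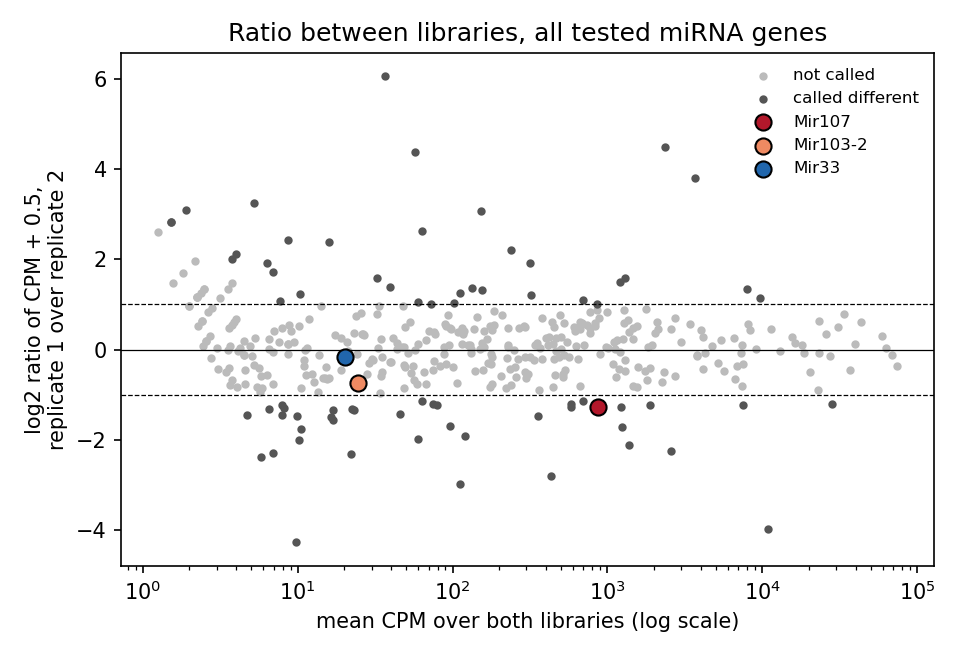
Log2 ratio of CPM + 0.5, replicate 1 over replicate 2 (y axis), against mean CPM (x axis, log scale) for the 404 tested miRNA genes; dark points are called different, dashed lines mark 1 and -1. Mir107 lies below the lower line at -1.27, and Mir103-2 at -0.75 and Mir33 at -0.17 lie between the lines.

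Whether the genes differed from each other in this ratio was tested with Fisher's exact test on their counts, over 6 pairs. The ratio of Mir33 to Mir107 was 0.0371 in replicate 1 and 0.0173 in replicate 2, a log2 difference of 1.10 (adjusted p = 0.000927, Fisher's exact test). This was the only pair of the 6 with an adjusted p under 0.05. Mir33 over Mir103-1 stood at 37.5 in replicate 1 and 6 in replicate 2 (adjusted p = 0.0671, Fisher's exact test), a ratio that rests on 2 and 6 counts of Mir103-1. Mir103-2 over Mir107 was 0.0356 in replicate 1 and 0.0250 in replicate 2 (adjusted p = 0.112, Fisher's exact test), a log2 difference of 0.51 that did not pass the test at these counts. The mRNAs of the hosts Pank1, Pank2, Pank3 and Srebf2 were not analysed here.

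Markers of other tissues also differed between the libraries, in both directions, and the shares called are to be read against 18.3% of all genes tested (8.66% higher and 9.65% lower in replicate 1). The liver marker Mir122 was lower in replicate 1 (log2 ratio -3.99). Of 10 striated muscle miRNAs, 4 were tested and 3 of these were lower in replicate 1, while Mir1b had a log2 ratio of 1.17 and was not called. Their summed level was almost wholly that of Mir206, at 1130 CPM in replicate 1 and 2646 CPM in replicate 2. Mir133a-2 had no count, and Mir1a-1, Mir1a-2, Mir133a-1 and Mir133b had at most 1.78 CPM. Reads that fit several loci were given to no gene, so these low counts do not show that the mature miRNAs were absent. Of 5 kidney miRNAs tested, Mir192 (log2 ratio -1.93) and Mir194-2 (-1.98) were lower in replicate 1, Mir215 (287 counts and 1 count) and Mir194-1 (39 counts and 1 count) were higher, and Mir204 was not called. The summed level of the kidney list came to 241 CPM in replicate 1 and 379 CPM in replicate 2.

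Of 3 brown fat miRNAs, Mir455 was called lower in replicate 1 (716 CPM in replicate 1 and 1734 CPM in replicate 2). Mir193b differed in the opposite direction without being called (64.6 CPM in replicate 1 and 42.1 CPM in replicate 2), and Mir365-1 was not called. The red cell miRNAs Mir451a and Mir144 were higher in replicate 1, while Mir486, which did not match the spelling in the list, had 12.4 CPM in replicate 1 and 19.6 CPM in replicate 2. Of 4 leukocyte miRNAs tested, Mir223 alone was called, lower in replicate 1. Of 4 neuroendocrine miRNAs, Mir7-2 alone was called, higher in replicate 1 (138 CPM in replicate 1 and 67.0 CPM in replicate 2), whereas Mir375, which made up most of the list, had 31129 CPM in replicate 1 and 42377 CPM in replicate 2. No endothelial or smooth muscle and stroma miRNA was called, of 2 tested in each list. Leaving the liver, red cell and striated muscle markers out of the library totals gave a log2 ratio of -1.29 for Mir107 and -0.19 for Mir33. The part of these tissues in the Mir107 counts themselves was not tested.

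By Euclidean distance of log2(CPM + 0.5) over the 2 libraries, among 339 other detected genes, the genes nearest to Mir107 were Mir132 and Mir146. Mir132 had 434 CPM in replicate 1 and 965 CPM in replicate 2 (distance 0.42), and Mir146 had 486 and 851 CPM (distance 0.54). Mir132 is a miRNA that is induced by cAMP signalling. The nearest to Mir33 were Mir547, with 19.4 and 23.1 CPM (distance 0.12), and Mir6516, with 19.9 and 23.1 CPM (distance 0.13). The nearest to Mir103-2 were Mir1949 (distance 0.33) and Mir547 (0.42). Mir103-1 was not itself detected, so genes at its own level were not among the candidates and its distances were bound to be large. The nearest detected genes were Mir365-1 at a distance of 2.02 and Mir126b at 2.28. With 2 libraries this likeness is a matter of level and of 1 ratio.

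Mir33 was among the lowest of 28 miRNA genes linked to cholesterol and lipid handling. All 28 were detected, and only Mir758 and Mir96 had a lower mean level than Mir33. The highest were Mir21a with 28291 ± 15953 CPM, Mir10b with 22713 ± 9630 CPM and Mir378a, from an intron of Ppargc1b, with 13088 ± 152 CPM (SD, n = 2 each). The list summed to 65286 CPM in replicate 1 and 122225 CPM in replicate 2, and Mir33 gave 18.9 and 21.3 CPM of this.

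Of the 28, 4 were called higher and 6 lower in replicate 1, which is 35.7% against 18.3% of all genes tested, and the list median log2 ratio was -0.05 against 0.05 over all genes tested. Those higher in replicate 1 were Mir301b (log2 ratio 2.63), the red cell miRNA Mir144 (2.21), Mir148a, a repressor of the LDL receptor (1.496), and Mir182 (1.22). Those lower in replicate 1 were the hepatocyte miRNA Mir122 (-3.99), the myeloid miRNA Mir223 (-1.48), Mir128-2 (-1.31), the muscle miRNA Mir206 (-1.23), Mir21a (-1.22) and Mir132 (-1.15). Several of these mark cells other than adrenal cells, and Mir33 was not among the called genes. Mir758, which like miR-33 is reported to repress Abca1, had 13.1 CPM in replicate 1 and 14.2 CPM in replicate 2, and Mir144, another of that kind, had 393 and 84.8 CPM.

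In a list of miRNA genes related by AGCAGC near the 5′ end of the mature form, the family was not the main source of counts placed at single loci. Reads of miR-103-3p, or of miR-16-5p, that fit more than 1 locus are outside these counts, so the family's full part in the list cannot be read from them. This list joins miR-103 and miR-107, in which AGCAGC starts at base 1, with the relatives of miR-15 and miR-16, in which it starts at base 2, so that their seeds overlap without being the same. The seed shift is visible in 3 of the sequences, with bases 2 to 8 in capitals.
miR-107-3p: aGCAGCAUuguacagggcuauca
miR-15a-5p: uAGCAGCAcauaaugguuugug
miR-322-5p: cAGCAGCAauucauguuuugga
By RefSeq, 11 of the 12 matched genes of the list had such a mature form, and Mir497b had none. The list does not cover every such miRNA: of 13 mature names in RefSeq with AGCAGC at base 1 or 2, it held 9. Of the 4 others, the gene Mir497 had 339 CPM in replicate 1 and 237 CPM in replicate 2, and Mir6342, Mir6353 and Mir6419 had no count in either library. Of the 12, 9 were detected, and Mir195b and Mir497b had no count in either library. Mir322, an X-linked miRNA of growth control, led with 43649 ± 13053 CPM, followed by Mir15a with 1737 ± 399 CPM and Mir16-1 with 1554 ± 392 CPM (SD, n = 2 each). Mir107 was the sixth of the list by mean level and the only one of its 9 tested genes that was called, which is 11.1% against 18.3% of all genes tested. The median log2 ratio of the 9 was -0.10, and 0.0075 with TMM scaling, edgeR's correction for library composition. The list summed to 60058 CPM in replicate 1 and 42694 CPM in replicate 2, the reverse of the order for Mir107, and Mir322 made up most of both sums.

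**Figure D4:**
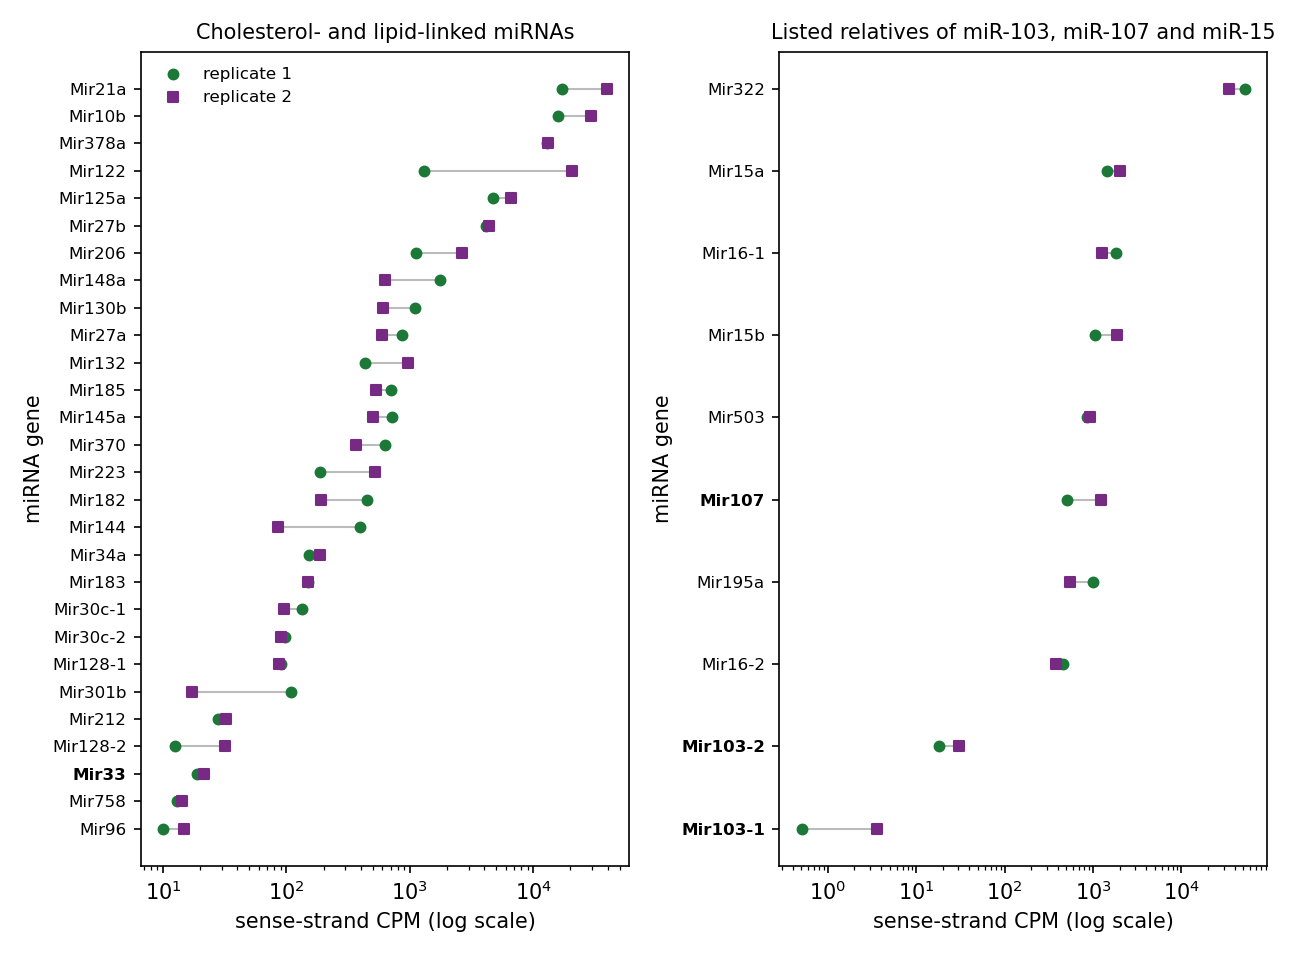
Sense-strand CPM (x axes, log scale) in replicate 1 (green circles) and replicate 2 (purple squares) for the cholesterol- and lipid-linked genes (left) and the listed relatives of miR-103, miR-107 and miR-15 (right), with the genes described here in bold. Mir33 stands above Mir758 and Mir96 on the left at 18.9 and 21.3 CPM, and Mir107, Mir103-2 and Mir103-1 span 1233 to 0.505 CPM on the right. Genes with no count are not drawn, and reads that fit several loci are in no gene's count.

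Among intronic miRNAs, Mir107 lay above the median level of the class, and Mir103-2 and Mir33 lay below it. Of 733 miRNA genes that lie within a protein-coding gene on its strand and overlap none of its exons, 117 were detected, with a median mean level of 155 CPM. The highest were Mirlet7g in Wdr82 with 68394 ± 3907 CPM, Mir26b in Ctdsp1 with 33709 ± 12610 CPM and Mir23b with 30777 ± 7495 CPM (SD, n = 2 each). Mir107 ranked 33, Mir103-2 ranked 90 and Mir33 ranked 95 among the 117. Reads that fit several loci are outside the levels of all genes of the class, so the rank of Mir103-2 does not give the place of miR-103. Of 149 intronic genes tested, 27 were called, or 18.1% against 18.3% of all genes tested, with 13 higher and 14 lower in replicate 1 and a median log2 ratio of 0.06. Mir107 was among the 14.

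**Figure D5:**
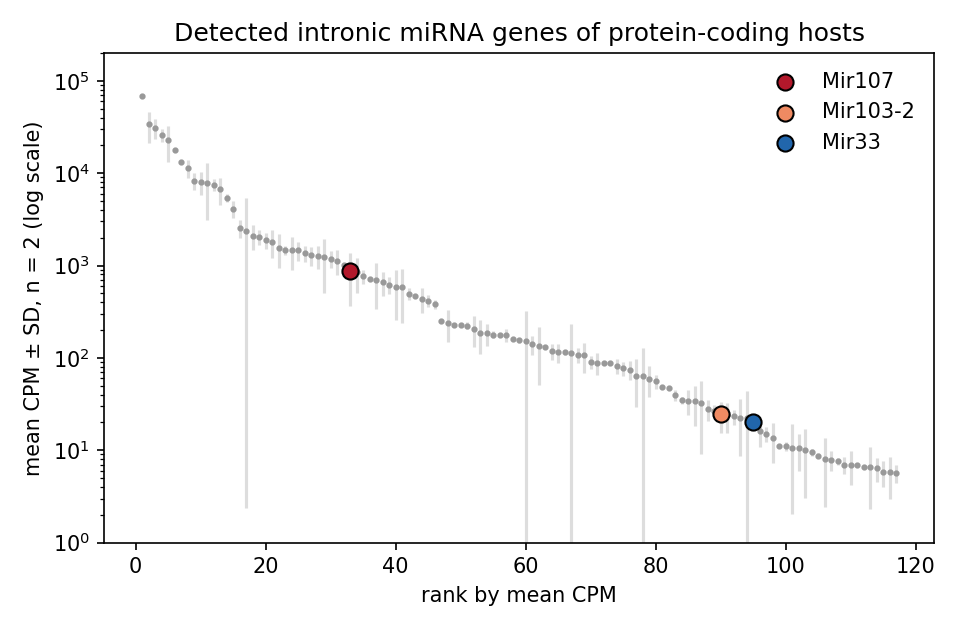
Mean CPM over both libraries with SD (y axis, log scale, n = 2) against rank (x axis) for the 117 detected intronic miRNA genes of protein-coding hosts. Reads that fit several loci are in no gene's count. Mir107 is at rank 33 with 872 CPM, and Mir103-2 and Mir33 are at ranks 90 and 95 with 24.5 and 20.1 CPM; bars that leave the axis at the bottom have an SD close to or above the mean.

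For the 4 genes, the either-strand column held the same counts as the sense-strand column in both libraries. The either-strand totals were smaller, so the same counts gave higher CPM there. The opposite strand held 0 counts at each gene, which allows up to 3 counts: 0.757 CPM for replicate 1 and 1.78 CPM for replicate 2.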

How the data were processed

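The authors deposited whole-number read counts per miRNA gene, 1 table per library, made on mm10 with annotation M21 per the file lists beside them. Reads that fit several loci, no gene or no place in the genome are summary rows and were left out of library totals. Aligner, trimming and filters are not given in the sources used here. Of 3 count columns, the sense-strand one was used. Symbols and positions came from GENCODE M21, sequences from RefSeq (GRCm38.p6).

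CPM, exact binomial and Fisher tests, Clopper-Pearson intervals and Benjamini-Hochberg adjustment were computed in Python 3.11.15 with scipy 1.17.1. TMM factors came from edgeR 4.0.16 and size factors from DESeq2 1.42.0. Hairpins were aligned with Biopython 1.88 and folded with ViennaRNA 2.7.2. The exact binomial test was checked on simulated counts with counting error alone, so the check does not cover variation between animals or libraries.

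The genes and lists were chosen with earlier results of these data known. The text names the 4 genes, the 3 highest and the called genes of each list, the 3 highest intronic genes, the 2 nearest genes and markers; Mir758, Mir96, Mir486, Mir497, Mir6342, Mir6353, Mir6419 and the sequences of miR-15a and miR-322 were added after values were seen. The list symbols Mir497a, Mir486a, Mir486b and Mir142hg matched no gene.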

Additional observations from a re-analysis of the deposited data

How the results depend on the processing

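With 2 libraries of 1 group, values without replicate 1 or 2 are those of the other library: 18.9 to 21.3 CPM for Mir33, 0.505 to 3.56 CPM for Mir103-1, 18.2 to 30.8 CPM for Mir103-2, 510 to 1233 CPM for Mir107, and 96.5 to 97.3% for the share of Mir107. Of 77 alternatives, 67 kept direction and side of the threshold, moved by less than the spread or, for the number of genes called, changed by no more than a set factor. The last rule took no account of direction. With all reads as the denominator, 63 higher and 19 lower, against 35 and 39, thus counted among the 67. Part of the 67 was fixed in advance: each of 2 values always lies within their SD of the mean, so leaving out a library could not count as a move. Many other alternatives could hardly move. Per 1000000 of all reads, the levels were 5.93 for Mir33, 7.02 for Mir103-2 and 244 for Mir107, the Mir107 log2 ratio was -0.88 (not called) and that of Mir33 turned from -0.17 to 0.20; this denominator includes reads outside miRNA genes. Mir33 was at 23.0 CPM in the either-strand column, where fewer counts make up the total. TMM scaling moved the median log2 ratio of all tested genes to 0.16 from 0.05; with it the Mir107 log2 ratio was -1.17 and still called, and the median of the AGCAGC group was 0.0075 against -0.10. At a log2 threshold of 0.58, 132 genes were called against 74, and Mir103-2 (-0.75) joined them. With at least 1 count in either library, 757 genes were tested and Mir103-1 was called (log2 ratio -2.01, adjusted p = 0.0346, exact binomial test), on 8 counts; with CPM + 5 its log2 ratio was -0.64. The total without marker genes was chosen after seeing the data. No paired analysis was possible because there is a single group. Depth limits Mir103-1 to a 95% interval of its ratio from 0.0140 to 0.794.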
